A study of Drosophila melanogaster with 4 samples.

Results

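The translation factors are the soluble proteins that start, extend and end protein synthesis on the ribosome. Their genes were followed in whole larvae of *Drosophila melanogaster* mutant for *ash2*, a trithorax group gene whose product acts in the methylation of histone H3. The members were all genes whose current symbol begins with eIF, eEF or eRF and a number, read through probes that the annotation assigns to exactly 1 gene. This gave 45 of 12058 genes, of which 39 encode initiation factors, 4 elongation factors and 2 release factors. They were read by 64 probes. A ratio in both RNA extractions of the mutant was available for 23 genes, which are 18 initiation factors, 4 elongation factors and 1 release factor. A further 10 had values in 1 extraction, and 12 had none.

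The mutant group, w1118;+;ash2I1, carried chromosomes X, Y and 2 of the isogenic wild-type line w1118;+;+, while chromosome 3, with the mutation, kept its own background. The allele was maintained over the balancer TM6c. For RNA the authors chose wandering larvae that were Tb+, that is wild type for the marker Tb. Those of the mutant line would be homozygous if TM6c carries that marker, which the methods do not spell out. Larvae of the third instar were taken from both lines and staged with bromophenol blue in the food, and the wild-type RNA was a single pool. Arrays 1 and 2 carried extraction 1 of the mutant and arrays 3 and 4 carried extraction 2, each with the mutant in Cy5 and the pool in Cy3. The table holds log2 ratios, a positive one likely meaning more RNA in the mutant. The direction and the base of the logarithm rest on these dyes and on the convention of the software named in the methods, since the table itself states neither.

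Initiation begins when eIF2 brings the initiator tRNA to the small ribosomal subunit, which eIF3, eIF1 and eIF5 prepare for scanning, while eIF4E, eIF4G and eIF4A hold and unwind the capped end of the mRNA. eEF1 then delivers each aminoacyl-tRNA and eEF2 moves the ribosome on. At a stop codon eRF1 and eRF3 release the finished protein. These factors are abundant in growing tissue, and larvae grow through massive protein synthesis.

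None of the tested translation factor genes passed the threshold of a 2-fold change with an adjusted p under 0.05 in limma. The count was 0 of 23 tested factor genes, where 6.63% of all 1659 tested genes passed (3.8% higher and 2.83% lower). Without the fold minimum the count was again 0 of 23, beside 10.1% of all tested genes (5.42% higher and 4.7% lower). At an unadjusted p under 0.05 there were 2 factor genes, *eIF2D* and *eRF1*, or 8.7% beside 34.2% of all tested genes. The mean log2 ratios of the 23 genes lay between -0.40 and 0.48, with a median of 0.03, and the median over all tested genes was 0.01. Of the factor genes 14 were above 0 and 9 below. The median size of the log2 ratio, taken without its sign, was 0.10 for the factor genes and 0.27 for all tested genes.

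The intervals of these genes were narrower than a 2-fold change. The standard error (SE) of limma, from n = 2 extractions, lay between 0.13 and 0.15 for the factor genes. It combines the spread of a gene between its extractions with a variance estimated over all tested genes. For *eIF3l*, with -0.06 and -0.07 in the 2 extractions, the SE was still 0.13. The 95% interval of every tested factor gene stayed inside a 2-fold change in either direction, with -0.77 for *eRF1* and 0.85 for *eIF2D* as the outermost bounds. The same held for 76.7% of all tested genes. These intervals are not adjusted for the number of genes. They leave out the spread of the wild-type pool, which counts as 1 control sample. Over the single arrays the 33 factor genes with any value gave 90 values, of which 0 reached a 2-fold change, beside 9.91% of 6793 gene values in all.

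**Figure D1:**
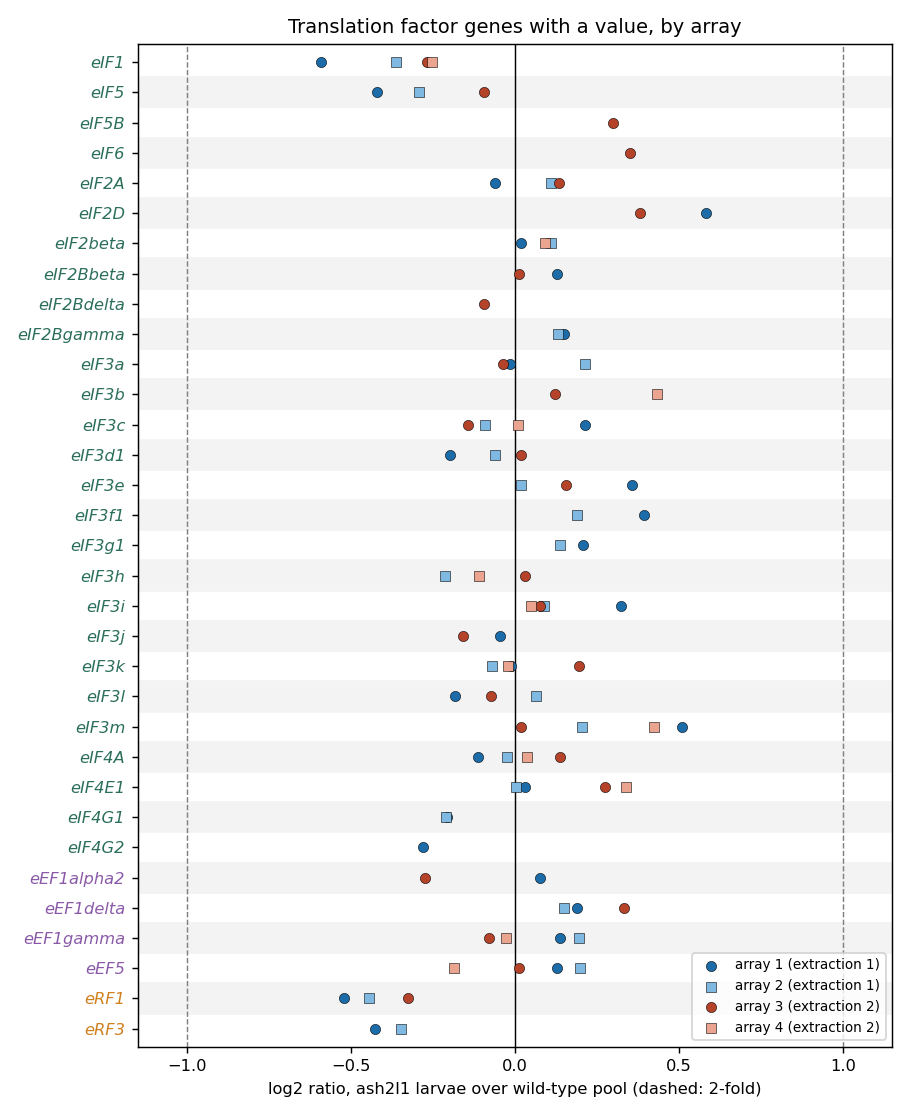
Log2 ratio of mutant over wild type (x axis) on each array for the 33 translation factor genes with a value (y axis, ordered by complex, label colour by initiation, elongation or release); circles and squares are the 2 arrays of an extraction. All 90 points lie between -0.59 and 0.58, inside the dashed lines of a 2-fold change, and both release factors lie left of 0.

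The lowest mean ratio was that of a release factor. *eRF1*, which reads the stop codons, had log2 ratios of -0.52 and -0.44 on the arrays of extraction 1 and -0.33 on array 3, and no value on array 4. Its mean was -0.40 ± 0.13 (SE, n = 2; adjusted p = 0.122), with a 95% interval from -0.77 to -0.04, that is 1.32-fold lower in the mutant and short of the threshold. *eRF3*, the GTPase that works with eRF1, had -0.43 and -0.35 on the arrays of extraction 1 and could not be tested, since extraction 2 gave no value. The 5 array values of the 2 release factors were thus all below 0, between -0.52 and -0.33. Only that of *eRF1* on array 3 came from extraction 2. Among all tested genes 17.2% had a lower mean ratio than *eRF1*. When each array counted as its own replicate, *eRF1* passed the adjusted p at a log2 ratio of -0.43 (adjusted p = 0.0351), although these arrays are repeat hybridisations of 2 extractions. In that fit 28.1% of all 1659 tested genes passed the adjusted p, beside 2 of the 23 factor genes.

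*eIF1* and *eIF5* came next from the bottom. eIF1 keeps the scanning ribosome from starting at wrong codons. *eIF1* had log2 ratios of -0.59, -0.36, -0.27 and -0.25 on arrays 1 to 4, all below 0, and a mean of -0.37 ± 0.14 (adjusted p = 0.147). It too passed when each array counted as its own replicate (adjusted p = 0.0336), where 28.1% of all tested genes did. eIF5 makes eIF2 hydrolyse its GTP once the start codon is found. *eIF5* had -0.42, -0.29 and -0.10 on arrays 1 to 3, with a mean of -0.23 ± 0.14 (adjusted p = 0.325), and its ratio in extraction 1 was further from 0 than in extraction 2. The late-acting *eIF5B*, which joins the ribosomal subunits, and *eIF6*, which keeps the large subunit apart until then, were each measured on array 3 alone, with 0.30 and 0.35. Neither has a replicate.

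The highest ratio among the factors was that of *eIF2D*, also known as ligatin, which in mammals can place tRNA on the small subunit and helps to recycle ribosomes. It had log2 ratios of 0.58 on array 1 and 0.38 on array 3, with no value on the second array of either extraction. Its mean was 0.48 ± 0.14 (adjusted p = 0.0968), 1.4-fold higher in the mutant, with a 95% interval from 0.11 to 0.85. It did not pass in any alternative fit that could include it, where the adjusted p lay between 0.0688 and 0.15. *eIF2beta*, a subunit of eIF2 itself, stayed near 0, with 0.02, 0.11 and 0.09 on arrays 1, 2 and 4, and a mean of 0.08 ± 0.13. *eIF2A*, a further protein able to bind initiator tRNA, also had a mean of 0.08 ± 0.13. eIF2B recharges eIF2 with GTP. Of its 5 subunit genes *eIF2Bbeta* had a mean of 0.07 ± 0.13, *eIF2Bgamma* had 0.15 and 0.13 in extraction 1 only, and *eIF2Bdelta* had -0.10 on array 3 only. *eIF2Balpha* and *eIF2Bepsilon* had no value.

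eIF3, the large complex that scaffolds the small subunit, had the most tested genes of any factor group, though not the highest share. Of its 16 genes 13 had a value and 10 were tested. The means of the 10 lay between -0.13 and 0.29 with a median of 0.01, 5 above and 5 below 0. None passed, beside 6.63% of all tested genes. *eIF3m* was highest, with 0.51, 0.20, 0.02 and 0.42 on arrays 1 to 4 and a mean of 0.29 ± 0.13 (adjusted p = 0.207). Its values overlapped between extractions, and its difference of 0.41 between arrays 3 and 4 was the largest between 2 arrays of an extraction among the factor genes. *eIF3e* (0.17 ± 0.13), the fly Int6, and *eIF3i* (0.13 ± 0.13) followed, both above 0 on every array that measured them. *eIF3h* was lowest, with -0.21, 0.03 and -0.11 on arrays 2, 3 and 4 and a mean of -0.13 ± 0.13. *eIF3j*, a loosely bound subunit, had -0.10 ± 0.13, and *eIF3l* and *eIF3d1* had -0.07 ± 0.13 and -0.06 ± 0.13. The core subunit genes *eIF3a* and *eIF3c* had 0.03 ± 0.13 and 0.00 ± 0.13, and *eIF3k* had 0.02 ± 0.13. Of the subunits seen in 1 extraction, *eIF3b* had 0.12 and 0.43 on arrays 3 and 4, *eIF3f1* 0.39 and 0.19 and *eIF3g1* 0.21 and 0.14 on arrays 1 and 2. All 6 of these values were above 0, but the value of *eIF3b* on array 3 is the mean of a probe at 0.25 and a probe at -0.01.

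Several of these subunits have a second gene in the fly, and the copies differed in whether they gave a value at all. *eIF3d1*, *eIF3f1* and *eIF3g1* were each measured, whereas *eIF3d2*, *eIF3f2* and *eIF3g2* had no value on any array. The cap-binding proteins showed the same split. Among 7 genes of the eIF4E family only *eIF4E1* was measured, while *eIF4E3*, *eIF4E4*, *eIF4E5*, *eIF4E6*, *eIF4E7* and *eIF4EHP*, a cap-binding repressor, had none. *eIF4H2* had none either. Spots that failed the quality thresholds of the authors were left empty, so an empty gene has no ratio rather than a ratio of 0. In all, 73.3% of the factor genes had a value on some array, beside 29.1% of all genes with a probe.

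Of the cap-binding complex, *eIF4E1*, which holds the cap, had log2 ratios of 0.03 and 0.00 in extraction 1 and 0.27 and 0.34 in extraction 2. The extractions did not overlap, and the mean was 0.16 ± 0.15 (adjusted p = 0.468). *eIF4G1*, the scaffold that joins cap and ribosome, had -0.21 on both arrays of extraction 1, and *eIF4G2*, a relative known for its need in male meiosis, had -0.28 on array 1, with no value in extraction 2.

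*eIF4A*, the RNA helicase, was read by 17 probes, and shows how far probes of 1 gene can differ. The mean over its probes was -0.11, -0.02, 0.14 and 0.04 on arrays 1 to 4, and the gene had a ratio of 0.01 ± 0.13 (SE, n = 2). The SD over probes was 0.12, 0.15, 0.10 and 0.15 on these arrays. Of the probes 16 lay in 4 runs of 4 consecutive probe numbers. Runs 2 and 4 stood above runs 3 and 5 in their means on each array, with 0.11 and 0.11 against -0.12 and -0.12 on array 2. The lone probe, outside these runs, had -0.39, -0.32, -0.17 and 0.03. Taking only that probe gave the gene a ratio of -0.21. The annotation does not say whether the probes of a run share an oligonucleotide or a place on the slide. The SD over these probes was close to or above 0.10, the median size of the ratio over factor genes, most of which had 1 probe.

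**Figure D2:**
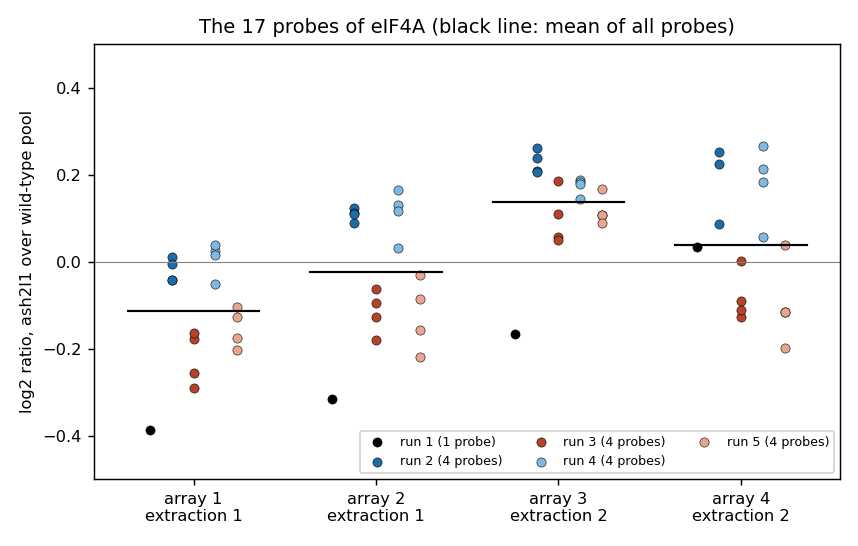
Log2 ratio of mutant over wild type (y axis) of the 17 probes of *eIF4A* on the 4 arrays (x axis), coloured by run of consecutive probe numbers, with the mean over probes as a black line. The probes span -0.39 to 0.04 on array 1 and -0.17 to 0.26 on array 3, and runs 2 and 4 lie above runs 3 and 5 in their means.

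The elongation factor genes were all tested, and none passed. Beside 6.63% of all tested genes called, a count over 4 genes can say little. *eEF1delta*, of the complex that recharges eEF1 with GTP, was highest, with 0.19, 0.15 and 0.33 on arrays 1 to 3 and a mean of 0.25 ± 0.13 (adjusted p = 0.263). It was above 0 on every array that measured it, although its 2 probes differed on array 1, with 0.37 and 0.01. The other 3 changed sign between extractions. *eEF1gamma*, of the same complex, had 0.14 and 0.19 in extraction 1 but -0.08 and -0.03 in extraction 2, and a mean of 0.06 ± 0.14. *eEF1alpha2*, a carrier of aminoacyl-tRNA, had 0.07 on array 1 and -0.28 on array 3, the largest difference between extractions among the factor genes, and a mean of -0.10 ± 0.15. *eEF5*, formerly eIF5A, which helps ribosomes through stretches of proline, had 0.13, 0.20, 0.01 and -0.19, and a mean of 0.04 ± 0.14. The median of the 4 genes was 0.05, against 0.03 for the 18 initiation factor genes. *eEF2*, *eEF1alpha1*, *eEF1beta*, *eIF1A*, *eIF2alpha*, *eIF2gamma*, *eIF4B* and *eIF4H1* were not analysed here, since no probe was assigned to them in the annotation used.

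**Figure D3:**
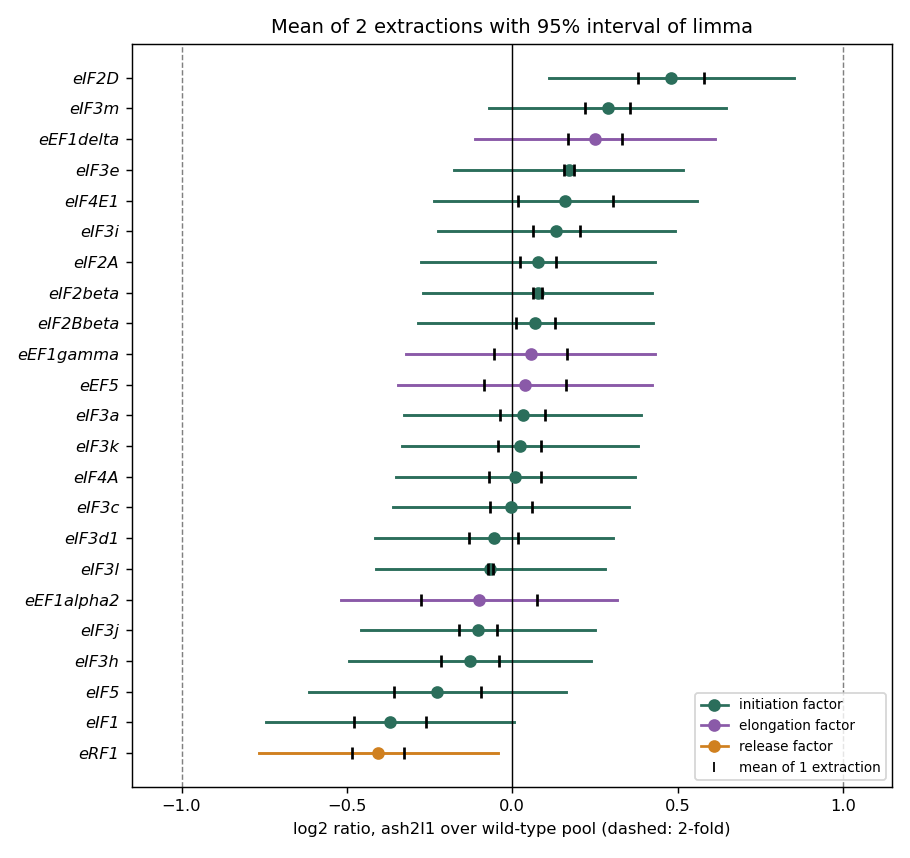
Mean log2 ratio of 2 extractions (dot), 95% interval of limma (line) and the 2 extraction means (ticks) for the 23 tested factor genes, ordered by ratio and coloured by class. No interval reaches the dashed lines of a 2-fold change, and those of *eIF2D* and *eRF1* leave out 0 before adjustment.

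The order of the 23 ratios had few gaps. The widest step was the 0.19 between *eIF3m* and *eIF2D*, and the other steps were smaller. Differences between neighbours in this order were not tested. Of the tested factor genes 15 had the same sign in both extractions (65.2%, beside 77.8% of all tested genes) and 12 had 1 sign on every array (52.2%, beside 71.1%). A gene with values on fewer arrays keeps 1 sign more easily. Among genes on all 4 arrays 44.4% of 9 factor genes had 1 sign on every array, beside 60.8% of 278 genes. Across the 23 genes the ratios of the extractions correlated with r = 0.67, and across all tested genes with r = 0.78. These are descriptions across genes, which share their arrays and are not independent replicates. The median difference between extractions, without its sign, was 0.15 for the factor genes and 0.23 for all tested genes. Chromosome 3, which was not made isogenic, holds 12 of the 23 genes, with a median of 0.04, and the other 11 had a median of 0.02. *eRF1*, *eIF1* and *eIF2D* are on arms 3L, 3L and 3R, while *eIF3m*, *eEF1delta* and *eIF5*, next in size, are on 2R, 2L and X. The part of the chromosome 3 background in these ratios was not tested.

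**Figure D4:**
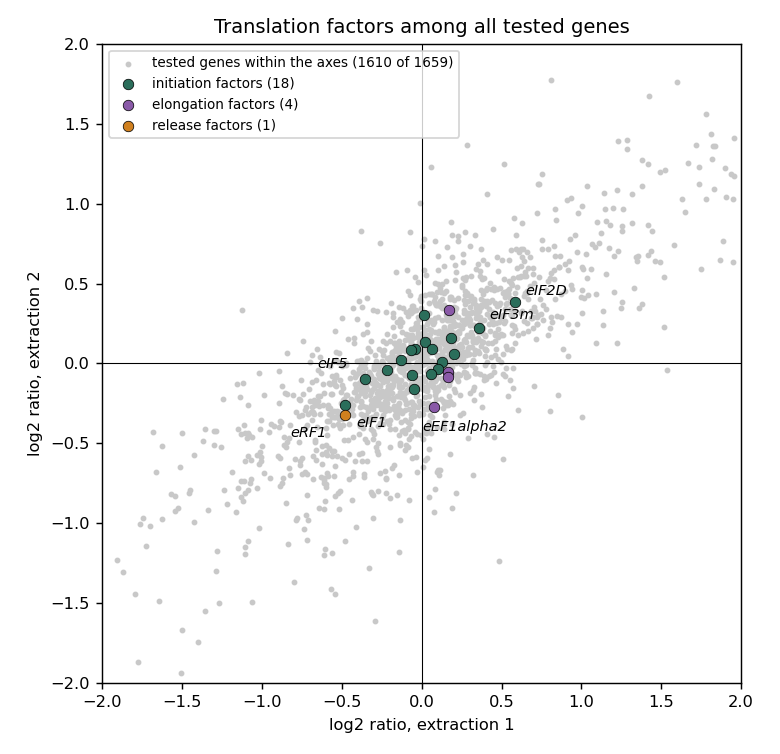
Log2 ratio in extraction 1 (x axis) against extraction 2 (y axis) for tested genes (grey, 1610 of 1659 within the axes) and the 23 factor genes (coloured by class). The factor genes lie near the origin, with *eIF2D* at the upper right end and *eRF1* and *eIF1* at the lower left.

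Other genes of protein synthesis were read beside the factors. The share called over all tested genes was 6.63%, so counts of 0 in short lists can say little. Of 21 genes of cytosolic tRNA synthetases and their AIMP partners with a probe, which charge the tRNAs, 8 were tested and none was called. They had a median log2 ratio of 0.01, from -0.20 for *SerRS* to 0.34 for *HisRS*. Of 39 genes with symbols of cytosolic ribosomal proteins 30 were tested and none was called. The median was 0.00, from -0.38 for *RpS7* to 0.69 for *RpL24-like*. The choice by symbol also took in *RpL24-like*, *RpLP0-like* (0.34) and *RpL7-like* (0.33), whose names mark them only as similar to ribosomal proteins. They were the highest of the list, followed by *RpL23* (0.255). *RpS7* had 0.49 in extraction 1 and -1.24 in extraction 2. Of 9 mitochondrial translation factor genes with a probe 2 were tested, *mEFTu1* (0.37 ± 0.13, adjusted p = 0.132) and *mEFTs* (0.13 ± 0.13), and neither passed. Among 17 genes for regulators of translation 5 were tested and none was called. *Paip2*, which restrains the poly(A)-binding protein, had -0.69 ± 0.15 (adjusted p = 0.058), the lowest mean ratio among the tested genes of these lists. *pAbp*, the gene of that protein, had -0.35 ± 0.17, and *larp* had 0.23 ± 0.13, the highest of the 5. Higher values stood in 1 extraction only, with 0.49 and 0.52 on arrays 1 and 2 for *PPP1R15* and 0.46 on array 3 for *Lk6*, and these were not tested. *Fmr1* and *bel* of the same list, also untested, had -0.28 and -0.22 on array 3 alone.

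**Figure D5:**
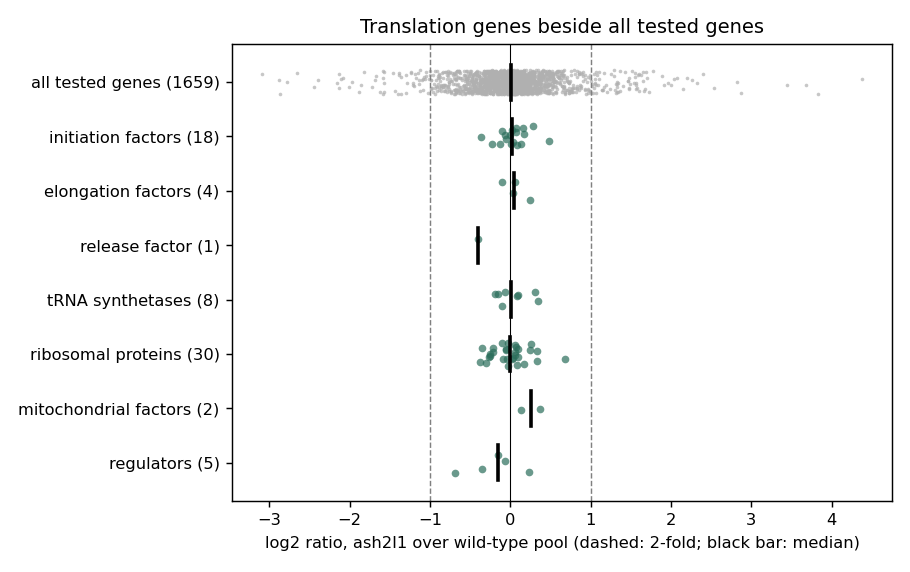
Mean log2 ratio (x axis) of each tested gene in the translation lists and among all tested genes (y axis, number of genes in brackets), with the median as a black bar. The listed translation genes lie between -0.69 and 0.69, inside the dashed lines of a 2-fold change.

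The series itself gave 3275, 2091, 3513 and 1108 probe values on arrays 1 to 4, so array 4 was the thinnest, and 9 of the factor genes had a value on all 4. The label of whole larvae was set against markers of larval tissues, of which genes of gut, fat body, epidermis, salivary gland, muscle and neurons had values, while the germ line list gave no tested gene among 4 with a probe. Tissue markers did differ from the pool. Over all tested genes 3.8% were called higher and 2.83% lower, and counts of 0 in lists this short can say little. The 3 tested epidermal genes, *Cpr49Ac*, *Pcp* and *Lcp9*, were called lower (median log2 ratio -1.44), and so were 2 of 3 of the fat body, *Lsp2* and *Fbp1*. Of 7 midgut genes 4 were called higher, *alphaTry*, *Jon44E*, *Amy-p* and *Amy-d*, and 1 lower, *Jon66Cii*. The 2 of the salivary gland (median -1.76) were below 0 in both extractions but did not pass. They were *Sgs5* (-2.78, adjusted p = 0.0651) and *Sgs4* (-0.74, adjusted p = 0.0535). The 4 of muscle (median 0.13) did not pass, nor did *Syb* (0.30), the 1 tested gene of the neuronal list. The neuronal marker *elav*, measured on array 3 alone, had -0.60, and the muscle gene *up*, also on array 3 alone, had 0.61. The part of tissue make-up in the ratios of the factor genes was not tested. In whole larvae fewer cells of a type and less RNA per cell cannot be told apart.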

How the data were processed

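Each of the 4 arrays compared amplified RNA of mutant larvae with that of the wild-type pool. The deposited log2 ratios had been normalised by the authors, who scanned with GenePix, removed spots below quality thresholds, corrected the background with normexp, and normalised with OLIN within arrays and by median absolute deviation between them. The labels name limma without a version. Removed spots are empty, and spot intensities were not analysed here, so the number of arrays limits the precision. Array medians lay between -0.02 and 0.04.

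Of 16416 probes 13164 had 1 gene symbol, 101 several and 3151 none. Current symbols came from the Release 6 gene table, by gene identifier (12533 probes), accession (120) or symbol (21), and 490 kept theirs. Probes of a gene were averaged per array, then arrays per extraction, leaving 1659 genes with both extractions. An intercept was fitted across these genes with limma 3.58.1 (R 4.3.3) and eBayes. Calls required a change of 2-fold or more and a Benjamini-Hochberg adjusted p below 0.05. The fit was tested on simulated log ratios. SE and two-sided tests are those of limma. The labels call the extractions biological replicates without naming separate cultures, so p-values rest on the spread between extractions, which may be technical. With eBayes that spread is drawn towards a variance estimated over all tested genes (4.16 degrees of freedom in total). Tables were made with Python 3.11.15.

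The members and lists were chosen with earlier results of these data known. Every member was named, with array values for the extremes of each factor group and for those past a threshold. Of the other lists of protein synthesis the extremes among tested genes were named, none of their genes being called. The tissue markers, *PPP1R15*, *Lk6*, *Fmr1* and *bel* were named after their values were seen. No sequence tables were used here.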

Additional observations from a re-analysis of the deposited data

How the results depend on the processing

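No initiation, elongation or release factor gene was called at 2-fold under any of the 12 alternative fits; *eRF1* had no test without array 3 or over the genes on all 4 arrays. Without the fold minimum the count of 0 factor genes became 2, *eIF1* and *eRF1*, with the 4 arrays as separate values. That fit treats 2 arrays of the same RNA as replicates. With the extraction as a random block the count stayed at 0, with both genes close to the threshold (adjusted p = 0.0537 for *eIF1* and 0.0535 for *eRF1*). The medians of the initiation and elongation factor genes moved by less than their spread between extractions. Over all genes the 110 calls of 1659 became 184 of 2312 with all probes in the fit. Fitting only the 278 genes on all 4 arrays gave 49 calls, where the fit over all 1659 genes had called 19 of these higher and 14 lower. Leaving out 1 array gave 0 to 123 calls, with 55 of 1529 genes without array 2 and 0 of 358 without array 3. That void count says nothing of the 11 factor genes in it. At any fold the 168 calls became 466 with separate arrays, 309 with the random block, and 290 and 295 with arrays centred or also scaled. With 1 probe per gene they were 102 of 1648. Without arrays 1, 2 and 3 they were 319 of 1155, 55 of 1529 and 0 of 358. Of the 278 genes on all 4 arrays 96 passed in their own fit, beside 21 higher and 18 lower in the fit over all genes. The cause was not tested. *eIF4A* moved from 0.01 to -0.21 with 1 probe per gene. No paired analysis was possible because the mutant extractions share 1 wild-type pool, so there is no second group with replicate numbers. Array 4 held the fewest values and *eIF2D* rests on 1 array per extraction, which limits these ratios.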
